A study of Homo sapiens with 12 samples.

Results

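The ADAM, ADAMTS and ADAMTSL genes were taken from the deposited table by name: every row named ADAM, ADAMTS or ADAMTSL followed by a number. This gave 44 genes out of 57865 features, 22 ADAM, 17 ADAMTS and 5 ADAMTSL genes. They were measured by sequencing total RNA of ES-2, an established ovarian cancer cell line. In siI1 a pool of siRNAs targeted IGF2BP1, in siI2 a pool targeted IGF2BP2, in siI3 a pool targeted IGF2BP3, and siC received control siRNA. Each of the 4 groups had 3 libraries, and all came from this single line with no other stated modification. The IGF2BPs are RNA-binding proteins that influence the stability, transport and translation of mRNAs, and protection of some mRNAs from miRNA-directed decay has been described for them. The time after transfection and the origin of replicates from separate cultures are not stated. A p-value here therefore sets a group difference only against the scatter between these libraries, and may not extend to separate cultures. Levels are given in FPM, the fragment unit of the deposited table. Its values imply depth scaling with a further factor per library, from 0.820 in siC replicate 2 to 1.25 in siI2 replicate 3. The sum of all FPM thus differs between libraries.

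ADAMs are membrane proteins with a metalloprotease and a disintegrin domain. Those with protease activity cut the extracellular part off growth factor precursors, cytokine receptors and adhesion molecules, which is called shedding. ADAMTS proteins are secreted relatives with thrombospondin repeats that cut matrix proteins such as procollagens and proteoglycans, while ADAMTSL proteins share the repeats but lack the protease domain and bind to matrix microfibrils. In tumours these genes are known for the release of EGF receptor ligands and for the remodelling of the matrix around the cells.

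Of the 44 genes, 25 had a group mean above 1 FPM in at least 1 of the 4 groups, 20 had one in all 4 groups, and 15 were above 1 FPM in each of the 12 libraries. The number above 1 FPM was 22 in siI1, 24 in siI2, 23 in siI3 and 22 in siC. At a limit of 0.5 FPM, 33 genes passed in at least 1 group, and at 2 FPM, 21 did. Just inside the limit were ADAM33, with a mean of 1.09 FPM in siI2, and ADAMTS7, with 1.03 FPM in siI3. Just outside were ADAMTSL3, at 0.974 FPM in siI3, and ADAM32, at 0.969 FPM in siI3. A filter on low read counts (minimum count 10) left 23 of the 44 genes for testing, 10 ADAM, 11 ADAMTS and 2 ADAMTSL genes, out of 13782 genes in the table that passed.

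The libraries held 3299360 to 11304060 reads, so that 1 read was worth 0.108 to 0.242 FPM and 3 reads, the floor used here, 0.324 to 0.727 FPM. IGF2BP1 averaged 11.1 FPM in siI1 and 43.9 FPM in siC, IGF2BP2 13.4 FPM in siI2 and 80.04 FPM in siC, and IGF2BP3 4.52 FPM in siI3 and 23.5 FPM in siC, each called lower (limma adjusted p = 1.19e-05, 3.45e-05 and 6.58e-04). The keratins KRT7, KRT8 and KRT18 were detected in every library, at 36.5 FPM or more, while EPCAM and CDH1 reached at most 0.970 and 1.10 FPM. Of 5 tested epithelial markers 2 were called higher in siI1 against siC, where 3.77% of all genes were called higher. KRT8 averaged 147 FPM in siI1 and 44 FPM in siC (limma adjusted p = 1.73e-04). KRT18 averaged 311 FPM in siI1 and 158 FPM in siC (adjusted p = 0.0150, up to 0.103 without siC replicate 1 or 3 or siI1 replicate 1 or 3). Of 3 tested mesenchymal markers, FN1 was called lower in siI1, and FN1 and VIM in siI3, where 4.42% and 8.29% of all genes were called lower. VIM averaged 484 FPM in siI1, 353 FPM in siI2, 338 FPM in siI3 and 914 FPM in siC (adjusted p = 0.113, 0.0563 and 0.0264; in siI3 up to 0.124 without siC replicate 1 or 3 or siI3 replicate 1 or 2). The part of these markers in the results below was not tested. Of the markers of leukocytes, PTPRC, CD68 and CD3E stayed at or below 0.886 FPM. The endothelial cadherin CDH5 averaged 140 FPM in siI1, 114 FPM in siI2, 101 FPM in siI3 and 60.5 FPM in siC, and its part in the results below was not tested. Replicates 1 and 3 of siC stood apart in how levels depended on GC content, with slopes of -0.46 and -0.43 log2 units per 10 percentage points of GC, against 0.02 in siC replicate 2 and -0.09 to 0.21 in the 9 knockdown libraries. Genes of low GC content were therefore read higher in those 2 siC libraries. The counts of members called against siC are given below also after a correction for GC content and transcript length and without those libraries. For single genes such values are given only in part, and a gene printed without them should not be taken as unaffected.

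Summed over the 44 genes, the family held 825 ± 14.2 FPM in siI1, 649 ± 22.7 FPM in siI2, 736 ± 58.6 FPM in siI3 and 627 ± 6.10 FPM in siC (SD, n = 3 each). In bulk libraries, a change in the share of cells that express a gene and a change in RNA per cell cannot be told apart. The siI1 libraries, at 808 to 833 FPM, were above all others, and the siI3 libraries, at 669 to 776 FPM, were above the siC libraries, at 620 to 631 FPM. The siI2 libraries, at 623 to 665 FPM, overlapped siC. ADAM genes summed to 494 ± 8.06 FPM in siI1, 341 ± 16 FPM in siI2, 324 ± 31.9 FPM in siI3 and 337 ± 8.54 FPM in siC. ADAMTS genes summed to 242 ± 4.98 FPM in siI1, 211 ± 7.92 FPM in siI2, 266 ± 17.5 FPM in siI3 and 195 ± 1.81 FPM in siC. The ADAM and ADAMTS sums were both above siC in every siI1 library. The ADAMTS sum was also above siC in every siI2 and siI3 library. It spanned 202 to 217 FPM in siI2, 246 to 277 FPM in siI3 and 193 to 196 FPM in siC. A sum is weighted by its highest genes. ADAM12 and ADAM19 averaged 157 and 120 FPM in siI1, and 64.7 and 32.8 FPM in siC. Of the 10 tested ADAM genes, 6 had a positive and 4 a negative log2 fold change in siI1 against siC. ADAMTSL genes summed to 89.7 ± 2.42 FPM in siI1, 97.2 ± 1.39 FPM in siI2, 147 ± 9.67 FPM in siI3 and 94.9 ± 4.25 FPM in siC.

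Per kilobase of the longest annotated transcript, ADAM15 was the highest member in each of the 4 groups, at 31.9 FPM per kb over all 12 libraries. It was followed by ADAMTSL1 at 12.7, ADAMTS1 at 12.6, ADAM9 at 11.2, ADAM12 at 10.3, ADAMTS2 at 10.3 and ADAM19 at 9.39 FPM per kb. In siI1, ADAM12 and ADAM19 held ranks 2 and 3 among the 25 genes by level per kb, against ranks 5 and 8 in siC. ADAMTS15 held rank 10 in siI1, 20 in siI2, 25 in siI3 and 19 in siC.

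**Figure D1:**
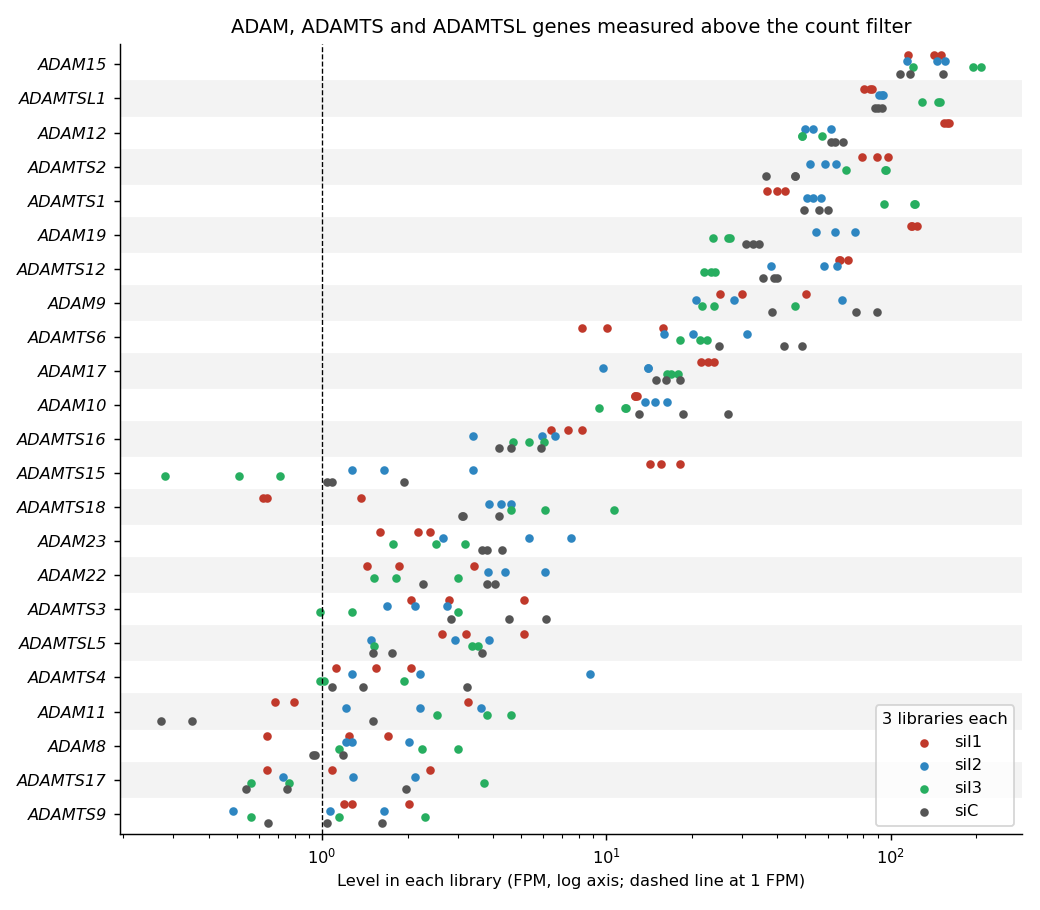
Level of each of the 23 tested ADAM, ADAMTS and ADAMTSL genes in FPM on a log axis, 1 point per library, for siI1, siI2, siI3 and siC (3 libraries each), ordered by the mean over the 12 libraries. ADAM15 is at the top with a mean of 144 FPM, and ADAM12, ADAM19 and ADAMTS15 show siI1 libraries above all others.

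In siI1 against siC, 5 of the 23 tested members rose at a limma adjusted p below 0.05 (ADAM12, ADAM19, ADAMTS2, ADAMTS12 and ADAMTS15) and 2 fell (ADAMTS6 and ADAMTS18); of all genes tested, 8.18% were called, 3.77% higher and 4.42% lower. In siI2 against siC, 1 of 23 rose (ADAM19), where 1.51% of all genes were called, 0.573% higher and 0.936% lower. The count of members that fell in siI2 was 0 by limma, edgeR and DESeq2 and 2 at an unadjusted p below 0.05 (ADAM9 and ADAMTS6). In siI3 against siC, 4 rose (ADAM11, ADAMTS1, ADAMTS2 and ADAMTSL1) and 1 fell (ADAMTS12), where 10.6% of all genes were called, 2.30% higher and 8.29% lower. The median log2 fold change of the 23 members against siC was 0.12 in siI1, 0.19 in siI2 and 0.05 in siI3, beside -0.05, -0.09 and -0.05 over all genes tested. The balance of all called genes depended on the scaling, with 79 higher and 129 lower in siI2 as fitted, 105 and 80 with relative log expression (RLE) factors, 44 and 42 under upper-quartile scaling, 102 and 85 after the GC and length correction and 115 and 70 by edgeR. In siI3 it was 317 higher and 1143 lower as fitted, 347 and 548 after the correction and 462 and 908 by edgeR, and in siI1 519 and 609 as fitted and 684 and 568 with RLE factors. The 3 comparisons share the siC libraries. ADAM19 was called in siI1 and siI2, and ADAMTS2 and ADAMTS12 in siI1 and siI3.

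The calls against siC depended on those control libraries. Without siC replicate 2, 9, 2 and 8 members were called in siI1, siI2 and siI3, beside 2602, 1572 and 2824 of all genes. Without siC replicate 1, 5, 0 and 1 members were called, beside 268, 36 and 89 of all genes. Without siC replicate 3, 5, 0 and 2 members were called, beside 290, 28 and 111 of all genes. The number of all genes called thus moved with that of the members. In siI3, leaving out siI3 replicate 1 or 2 left 2 or 1 member calls, beside 215 or 156 of all genes. In siI2, leaving out siI2 replicate 1 left 0 member calls and siI2 replicate 2 gave 3, beside 37 and 1414 of all genes. With siC replicates 1 and 3 both left out, an alternative chosen after seeing the data that sets 1 siC library against 3, ADAM19, ADAM12 and ADAMTS15 were still called in siI1 (adjusted p = 0.00724, 0.0443 and 0.0320), and 0 members were called in siI2 and in siI3. In that fit 40 genes in all were called in siI1, 1 in siI2 and 15 in siI3. After the GC and length correction, 8 members were called in siI1 (6 higher, 2 lower), 1 in siI2 and 3 in siI3. Of all 13571 corrected genes, 894, 187 and 895 were called.

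Between knockdowns, where siC takes no part in the difference, 5 members were called in siI1 against siI2 (4 higher, 1 lower, where 2.40% of all genes were called, 1.63% higher and 0.769% lower), 7 in siI1 against siI3 (4 higher, 3 lower, where 7.05% were called, 4.57% higher and 2.47% lower) and 3 in siI2 against siI3 (2 higher, 1 lower, where 2.00% were called, 1.26% higher and 0.740% lower). Of all genes in siI1 against siI2, 225 were higher and 106 lower as fitted, 367 and 278 after the GC and length correction and 161 and 141 by edgeR. The 7 members in siI1 against siI3 were called in all 12 leave-one-out fits. In siI1 against siI2 the count was 2 without siI1 replicate 1 and 3 without siI1 replicate 2, siI1 replicate 3 or siI2 replicate 1. Of all genes, 127, 143, 131 and 207 were called in these fits, in this order. In siI2 against siI3, 5 members were called without siI3 replicate 3, beside 410 of all genes. In all, 11 members were called in at least 1 of the 6 comparisons, 10 of them against siC, making 28 calls, of which 18 were made in each of the 12 leave-one-out fits and 26 after the GC and length correction.

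**Figure D2:**
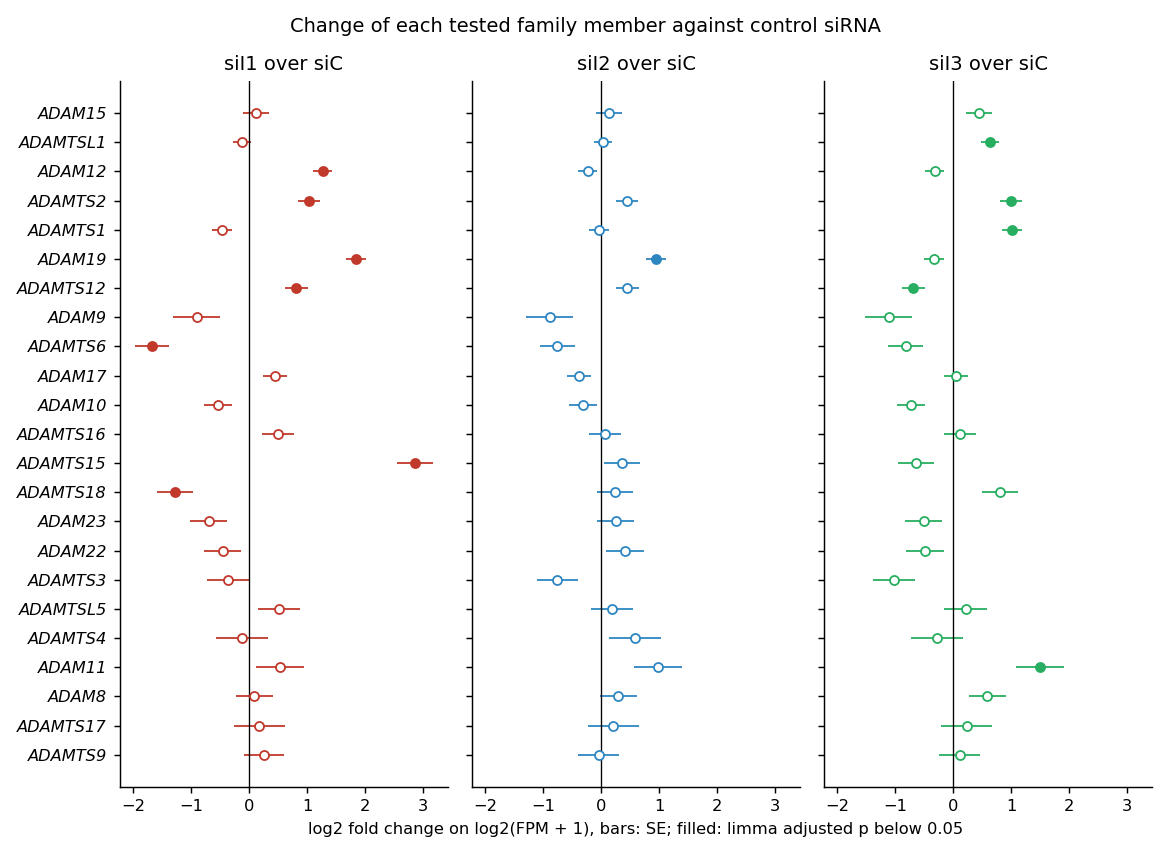
Log2 fold change on log2(FPM + 1) with its SE for the 23 tested members in siI1, siI2 and siI3, each over siC, with called members filled. In siI1, ADAMTS15 (2.86) and ADAM19 (1.84) lie farthest to the right and ADAMTS6 (-1.67) farthest to the left.

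ADAMs with protease activity were the highest part of the family. Of 9 such genes 7 were tested, and 2 rose in siI1 and 1 in siI2, where 3.77% and 0.573% of all genes rose. The count of calls among the 7 was 0 in siI3 and 0 in the lower direction in siI1 and siI2, by limma and by edgeR; at an unadjusted p below 0.05, 2 were lower in siI1, 1 in siI2 and 2 in siI3, from among ADAM9 and ADAM10. ADAM19 (ENSG00000135074), also called meltrin beta, sheds neuregulin and is known from heart development. It had 118, 119 and 124 FPM in siI1, 74.7, 63.6 and 54.6 FPM in siI2, 27.2, 23.8 and 26.8 FPM in siI3, and 31.1, 34.5 and 32.9 FPM in siC. No library of siI1 or siI2 overlapped siC, and the siI3 libraries were all below siC. The change against siC was 1.84 ± 0.17 log2 units in siI1 (SE; limma adjusted p = 1.19e-05) and 0.94 ± 0.17 in siI2 (adjusted p = 0.0140). The siI2 call did not hold when siC replicates 1 or 3 or siI2 replicate 1 were left out singly (adjusted p up to 0.0880). Between knockdowns ADAM19 was higher in siI1 than in siI2 by 0.90 ± 0.17 (adjusted p = 0.00889; up to 0.0607 without siI1 replicate 1 or 3), higher in siI1 than in siI3 by 2.17 ± 0.17 (8.32e-07) and higher in siI2 than in siI3 by 1.27 ± 0.17 (6.01e-04).

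ADAM12 (ENSG00000148848), or meltrin alpha, cuts HB-EGF and insulin-like growth factor binding proteins and is found in tumour and mesenchymal cells. It had 154, 158 and 161 FPM in siI1, 49.8, 53.3 and 61.8 FPM in siI2, 48.8, 57.2 and 48.9 FPM in siI3, and 61.9, 64.0 and 68.1 FPM in siC. The 3 siI1 libraries stood far above the other 9, which lay between 48.8 and 68.1 FPM. ADAM12 rose in siI1 against siC by 1.27 ± 0.16 log2 units (SE; limma adjusted p = 3.35e-04), and it was higher in siI1 than in siI2 by 1.51 ± 0.16 (1.38e-04) and than in siI3 by 1.59 ± 0.16 (1.44e-05). These calls held in each leave-one-out fit.

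ADAM17 (ENSG00000151694), or TACE, releases TNF and most EGF receptor ligands. It had 23.9, 22.7 and 21.5 FPM in siI1, 14.1, 14 and 9.70 FPM in siI2, 17.8, 16.9 and 16.3 FPM in siI3, and 18.1, 15 and 16.2 FPM in siC. The siI1 libraries were the 3 highest and the siI2 libraries the 3 lowest. The difference of 0.82 ± 0.21 log2 units between siI1 and siI2 was called (SE; limma adjusted p = 0.0463), but the call was lost in 10 of the 12 leave-one-out fits, those without siC replicate 2 and siI3 replicate 3 being the exceptions (adjusted p up to 0.199). Against siC, the siI1 difference was 0.45 ± 0.21 (adjusted p = 0.173), and with the GC and length correction it was 0.99 ± 0.20 (adjusted p = 0.00763); ADAM17 has a GC content of 38.5%. Exons of ADAM17 share 12.3% of their bases with IAH1 on the opposite strand, and the library preparation as described does not mark the strand.

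Of the other 4 tested members of this class none was called. ADAM15 (metargidin), which binds integrins through an RGD motif, averaged 136 ± 18.3 FPM in siI1, 138 ± 21.6 FPM in siI2, 174 ± 47.8 FPM in siI3 and 126 ± 23.7 FPM in siC (SD, n = 3 each), with overlapping groups. ADAM9, a widely expressed sheddase, averaged 35.1 ± 13.4 FPM in siI1, 38.7 ± 25.0 FPM in siI2, 30.6 ± 13.4 FPM in siI3 and 67.7 ± 26.5 FPM in siC. Its siC libraries were at 75.5, 38.3 and 89.5 FPM, the value of replicate 2 lying within the knockdown range. Its differences from siC were -0.90, -0.89 and -1.11 log2 units (adjusted p = 0.165, 0.210 and 0.0864), and -0.35, -0.35 and -0.62 after the correction. ADAM10, the protease that starts Notch activation and sheds cadherins, averaged 12.7 ± 0.110 FPM in siI1, 14.9 ± 1.37 FPM in siI2, 10.9 ± 1.31 FPM in siI3 and 19.5 ± 6.90 FPM in siC. The differences from siC were -0.53, -0.31 and -0.73 log2 units (adjusted p = 0.173, 0.462 and 0.0644), and -0.01, 0.23 and -0.29 after the correction. ADAM8, a sheddase of myeloid cells, ranged from 0.640 to 3.01 FPM. ADAM33, linked to airway remodelling, was not tested and ranged from 0.116 to 1.84 FPM.

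**Figure D3:**
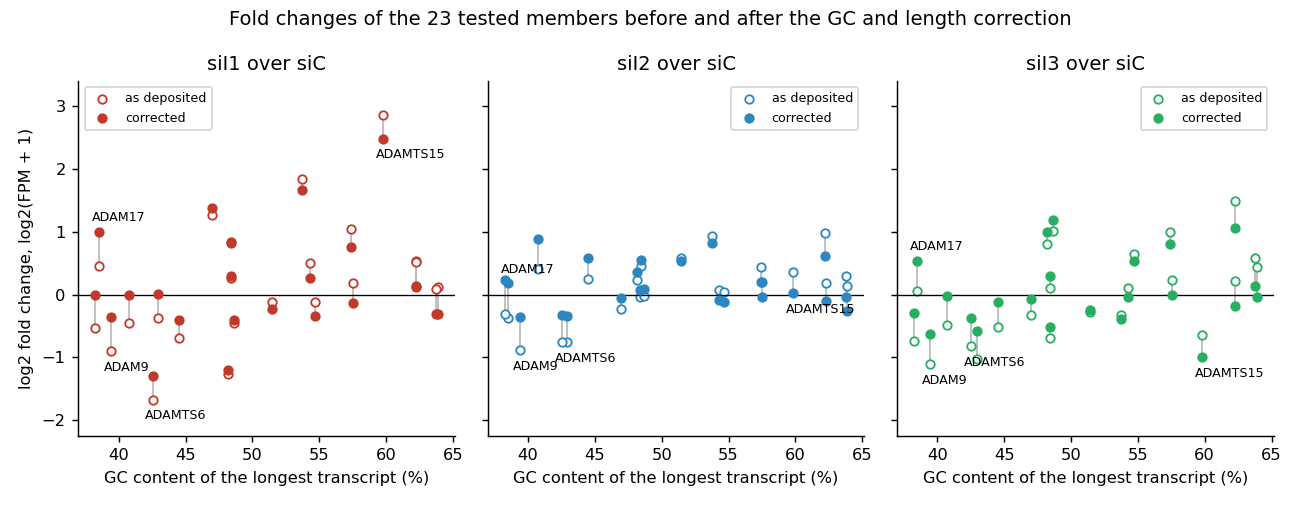
Log2 fold change over siC of the 23 tested members against the GC content of the longest transcript, as deposited (open) and after the GC and length correction (filled), joined by a line. ADAM9 and ADAM17, at 39.4% and 38.5% GC, shift upwards in siI1, siI2 and siI3, while ADAMTS15, at 59.8% GC, stays high in siI1 (2.86 as deposited, 2.48 corrected).

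Of the 23 tested members, 7 had a GC content below 45%: ADAM9, ADAM10, ADAM17, ADAM22, ADAM23, ADAMTS3 and ADAMTS6. In 6 of these 7, siC replicate 2 was the lowest of the 3 siC libraries, and the fold change against siC was negative for 6 in siI1, 5 in siI2 and 6 in siI3. After the correction it was negative for 5, 3 and 6.

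ADAM11, ADAM22 and ADAM23 lack protease activity and act in neurons as receptors or partners of secreted LGI proteins. All 3 were tested, and 1 rose, in siI3, where 2.30% of all genes rose. ADAM11 (ENSG00000073670) had 3.26, 0.8 and 0.684 FPM in siI1, 3.62, 2.20 and 1.21 FPM in siI2, 3.79, 2.54 and 4.61 FPM in siI3, and 0.348, 1.51 and 0.271 FPM in siC. The siI3 libraries were all above siC, whereas siI1 and siI2 overlapped it. In siC replicates 1 and 3, ADAM11 was at or below the floor of 3 reads, which was 0.348 and 0.406 FPM there. The siI3 change was 1.49 ± 0.41 log2 units (SE; limma adjusted p = 0.0334), and with the GC and length correction it was 1.05 ± 0.38 (adjusted p = 0.102). The call also did not hold without siC replicate 1 or 3 or any siI3 replicate (adjusted p up to 0.156). ADAM23 averaged 2.06 ± 0.410 FPM in siI1, 5.17 ± 2.44 FPM in siI2, 2.49 ± 0.703 FPM in siI3 and 3.92 ± 0.330 FPM in siC, and ADAM22 averaged 2.24 ± 1.04 FPM in siI1, 4.77 ± 1.16 FPM in siI2, 2.12 ± 0.787 FPM in siI3 and 3.37 ± 0.967 FPM in siC; neither was called.

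The procollagen N-proteinases ADAMTS2, ADAMTS3 and ADAMTS14 remove the amino-terminal propeptides of fibrillar procollagens. ADAMTS2 (ENSG00000087116) was the highest of them per kb and rose in both siI1 and siI3. It had 98.1, 79.3 and 89.7 FPM in siI1, 59.0, 52.0 and 64.0 FPM in siI2, 96.4, 95.3 and 69.8 FPM in siI3, and 36.5, 45.9 and 46.0 FPM in siC. The 9 knockdown libraries were all above the 3 siC libraries. The change was 1.04 ± 0.19 log2 units in siI1 (SE; limma adjusted p = 0.00354) and 1.0 ± 0.19 in siI3 (adjusted p = 0.00890), the siI3 call being lost without siC replicate 1 or siI3 replicate 2 (adjusted p up to 0.0639). After the correction the values were 0.75 and 0.81 (adjusted p = 0.0117 and 0.0116). Without both siC replicates 1 and 3 they were 0.93 and 0.89 (adjusted p = 0.280 and 0.460). ADAMTS3 was measured between 0.982 and 6.15 FPM and was not called, and ADAMTS14 was not above 1 FPM in any group.

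The proteoglycan-cutting group cleaves aggrecan, versican and their relatives, and 4 of its 7 members were tested. ADAMTS15 (ENSG00000166106) had 14.3, 15.5 and 18.1 FPM in siI1, 1.28, 1.65 and 3.39 FPM in siI2, 0.281, 0.508 and 0.709 FPM in siI3, and 1.04, 1.94 and 1.08 FPM in siC. The siI1 libraries had at least 14.3 FPM, and no other library passed 3.39 FPM. All siI3 libraries were below siC, with 2 to 4 reads each. The mean in siI1 was 11.8 times that in siC, and the log2 change 2.86 ± 0.31 (SE; limma adjusted p = 6.03e-05) was the largest of any member in any comparison with siC. ADAMTS15 was also higher in siI1 than in siI2 by 2.50 ± 0.31 (adjusted p = 3.54e-04) and than in siI3 by 3.50 ± 0.31 (3.39e-06), and all 3 calls held in each leave-one-out fit.

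ADAMTS1 (ENSG00000154734), which also inhibits angiogenesis, moved in siI3. It had 42.4, 36.6 and 40.0 FPM in siI1, 53.4, 50.9 and 57.0 FPM in siI2, 121, 121 and 95.0 FPM in siI3, and 49.4, 60.1 and 55.8 FPM in siC. The siI3 libraries were above all others, and the siI1 libraries were the 3 lowest. ADAMTS1 rose in siI3 against siC by 1.01 ± 0.17 log2 units (SE; limma adjusted p = 0.00533), and in siI1 it was at -0.46 ± 0.17 (adjusted p = 0.103). It was lower in siI1 than in siI3 by 1.47 log2 units (log2 change -1.47 ± 0.17, adjusted p = 5.23e-05) and lower in siI2 than in siI3 (-1.04 ± 0.17, adjusted p = 0.00363). Without both siC replicates 1 and 3 the change in siI3 was 0.88 (adjusted p = 0.411). ADAMTS4, known as aggrecanase 1, ranged from 0.982 to 8.73 FPM, its highest value standing in siI2 replicate 3, and ADAMTS9 ranged from 0.485 to 2.30 FPM; neither was called.

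ADAMTS12 (ENSG00000151388), which cleaves the cartilage protein COMP, was called in opposite directions in siI1 and siI3. It had 66.2, 71.0 and 66.0 FPM in siI1, 64.5, 58.1 and 38.1 FPM in siI2, 24.1, 22 and 23.4 FPM in siI3, and 38.7, 39.7 and 35.6 FPM in siC. The siI1 libraries were all above siC, the siI3 libraries all below it, and in siI2 replicate 3 alone lay within the siC range. The change against siC was 0.82 ± 0.20 log2 units in siI1 (SE; limma adjusted p = 0.0213) and -0.69 ± 0.20 in siI3 (adjusted p = 0.0388). The siI1 call did not hold without siC replicate 1 or 3 or any siI1 replicate (adjusted p up to 0.102), and the siI3 call without siC replicate 1 or 3, siI1 replicate 1 or 3, or siI3 replicate 1 or 2 (adjusted p up to 0.146). The GC-corrected siI3 change was -0.52 ± 0.17 (adjusted p = 0.0673). The direct difference between siI1 and siI3 was 1.51 ± 0.20 (adjusted p = 1.42e-04) and that between siI2 and siI3 was 1.14 ± 0.20 (adjusted p = 0.00521), and both held in each leave-one-out fit. ADAMTS7, the other COMP-cutting protease, was not tested and ranged from 0 to 2.13 FPM.

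The remaining ADAMTS genes have less defined substrates. Of these 5 genes 4 were tested, and 2 fell in siI1, where 4.42% of all genes fell. ADAMTS6 (ENSG00000049192), known for a role in fibrillin microfibrils, had 10.1, 15.8 and 8.21 FPM in siI1, 20.2, 31.2 and 16 FPM in siI2, 18.1, 21.3 and 22.7 FPM in siI3, and 48.9, 24.9 and 42.1 FPM in siC. All siI1 libraries were below siC, and siC replicate 2 was the lowest of the controls. The change in siI1 was -1.67 ± 0.30 log2 units (SE; limma adjusted p = 0.00311), -1.30 ± 0.21 after the correction (adjusted p = 0.00184), and -1.11 without both siC replicates 1 and 3 (adjusted p = 0.524). ADAMTS6 has a GC content of 42.5%. After the correction it was also lower in siI1 than in siI2 (-0.97 ± 0.21, adjusted p = 0.0170) and than in siI3 (-0.92 ± 0.21, adjusted p = 0.0107), where the uncorrected differences were -0.92 ± 0.30 (adjusted p = 0.131) and -0.85 ± 0.30 (0.0992).

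ADAMTS18 (ENSG00000140873), linked to eye development, had 0.621, 0.640 and 1.37 FPM in siI1, 4.26, 3.86 and 4.61 FPM in siI2, 4.63, 6.10 and 10.6 FPM in siI3, and 3.13, 4.21 and 3.11 FPM in siC. The siI1 libraries were the 3 lowest, and siI3 replicate 3 was the highest. The low siI1 values rest on few reads, as 1 read was worth 0.155 FPM in siI1 replicate 1 and 0.160 FPM in replicate 2. ADAMTS18 fell in siI1 against siC by 1.27 log2 units (-1.27 ± 0.31, SE; limma adjusted p = 0.0215), a call that did not hold without any one of siC replicates 1 and 3 and siI1 replicates 1 and 2 (adjusted p up to 0.107). It was lower in siI1 than in siI2 (-1.50 ± 0.31, adjusted p = 0.0152; up to 0.0841 without siI1 replicate 1, siI1 replicate 2 or siI2 replicate 1) and than in siI3 (-2.07 ± 0.31, adjusted p = 4.34e-04). ADAMTS16, expressed in kidney and ovary, averaged 7.31 ± 0.920 FPM in siI1, 5.32 ± 1.70 FPM in siI2, 5.35 ± 0.663 FPM in siI3 and 4.92 ± 0.892 FPM in siC and was not called. ADAMTS17 ranged from 0.541 to 3.72 FPM, without a call.

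Of the 5 ADAMTS-like genes, 2 were tested. ADAMTSL1 (ENSG00000178031), or punctin, had 85.7, 80.6 and 84.8 FPM in siI1, 93.5, 91.3 and 94.3 FPM in siI2, 147, 150 and 129 FPM in siI3, and 90.2, 93.5 and 88.1 FPM in siC. The siI3 libraries were above the other 9, which lay within 80.6 to 94.3 FPM. ADAMTSL1 rose in siI3 against siC by 0.64 ± 0.16 log2 units (SE; limma adjusted p = 0.0231; up to 0.106 without siC replicate 1 or 3 or siI3 replicate 1 or 2). It was lower in siI1 than in siI3 (-0.75 ± 0.16, adjusted p = 0.00647), and in siI2 than in siI3 the difference was -0.60 ± 0.16 (adjusted p = 0.0610; -0.66 ± 0.13 and 0.0103 after the correction). ADAMTSL5 ranged from 1.49 to 5.13 FPM, without a call.

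**Figure D4:**
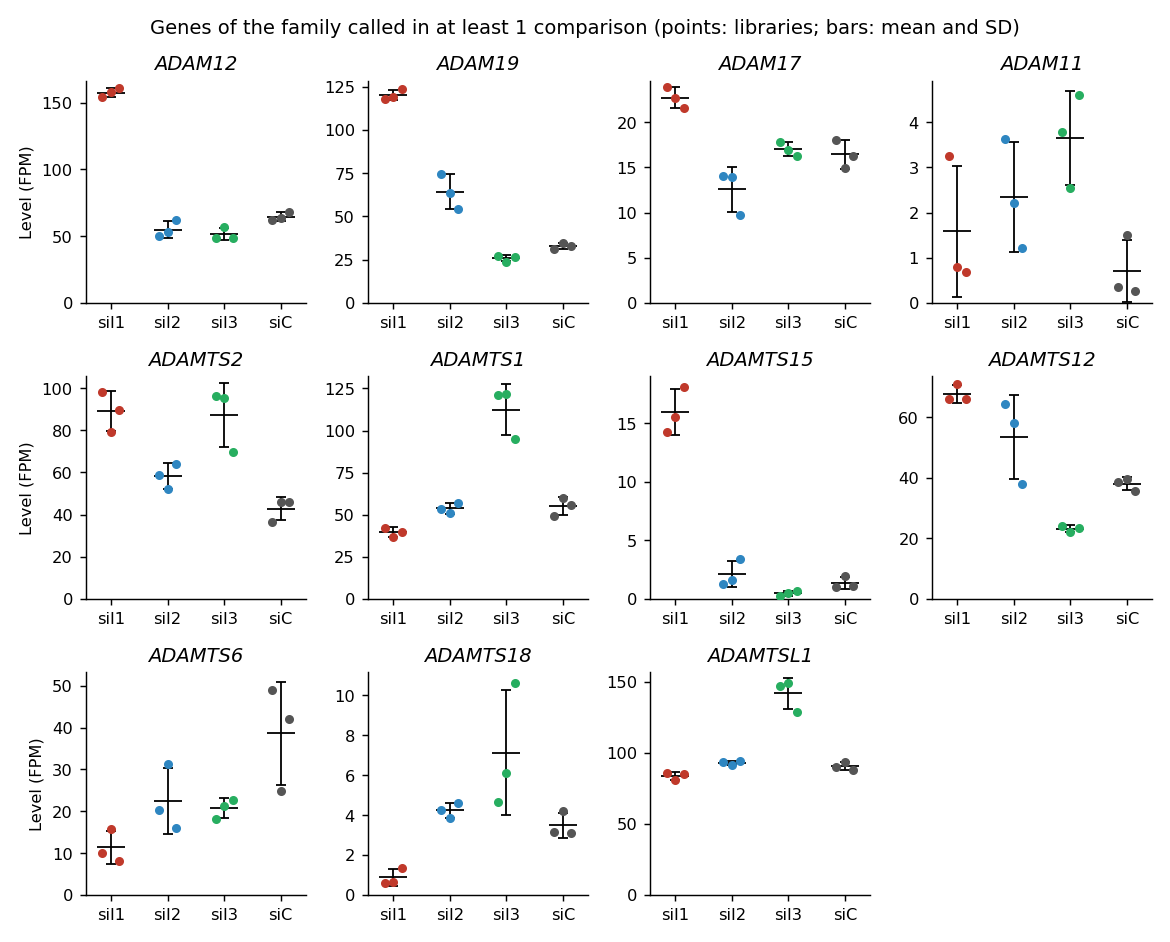
Level in FPM, on axes from 0, of the 11 members called in at least 1 comparison, with 3 libraries (points), mean and SD (bars) for siI1, siI2, siI3 and siC. ADAM12, ADAM19 and ADAMTS15 are highest in siI1, ADAMTS1 and ADAMTSL1 in siI3, and ADAMTS2 in siI1 and siI3.

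The 19 members that stayed at or below 1 FPM in each group mean were ADAM2, ADAM5, ADAM6, ADAM7, ADAM18, ADAM20, ADAM21, ADAM28, ADAM29, ADAM30, ADAM32, ADAMTS5, ADAMTS8, ADAMTS14, ADAMTS19, ADAMTS20, ADAMTSL2, ADAMTSL3 and ADAMTSL4. They include all 10 ADAMs that are known from testis, sperm or epididymis or are annotated as pseudogenes, such as ADAM2, a sperm surface protein also called fertilin beta. The highest value of any of the 19 in any library was 2.08 FPM. Of the 19, 6 had their highest value in siI3 replicate 3, as did 5 of the 23 tested members; that library listed 31425 features above 0, against 21477 to 27141 in the other 11.

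The authors' deposited table gives an FDR below 0.05 for 6 members in siI1 (ADAM12, ADAM19, ADAMTS2, ADAMTS6, ADAMTS15 and ADAMTS18), 1 in siI2 (ADAM19) and 2 in siI3 (ADAMTS1 and ADAMTS2). All of these were also called here, where 7, 1 and 5 were called.

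Sequence context was read for the members with a known transcript. IGF2BPs have been studied beside let-7, and the miR-29 family is known for repressing collagens and other matrix mRNAs, so the 7-base sites that pair with bases 2 to 8 of these miRNAs were searched in the longest annotated 3' untranslated region of each gene (GENCODE release 29, GRCh38). No miRNA was measured in the table used here. The mature sequences, from RefSeq (GRCh38.p14), are shown with the seed (bases 2 to 8) in capitals to show what the sites below pair with.
hsa-let-7a-5p: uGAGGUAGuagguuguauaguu
hsa-miR-29a-3p: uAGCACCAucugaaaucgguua
hsa-miR-29b-3p: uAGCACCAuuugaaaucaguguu

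The miR-29 site TGGTGCT was present in 11 of the 23 tested members (47.8%), with 21 sites or 0.285 per kb, against 19.6% of 11373 tested genes with a 3' untranslated region, or 0.106 per kb. These regions were longer in the members, with a median of 2820 bases against 1673. All 7 members called in siI1 against siC held at least 1 miR-29 site, the 5 that rose as well as the 2 that fell: ADAMTS2 had 4, ADAMTS12 and ADAMTS6 3 each, ADAM12, ADAM19 and ADAMTS18 2 each, and ADAMTS15 1. ADAMTS1, ADAMTSL1, ADAM11 and ADAM17, the other called members, held none. Among tested members without a call, ADAM15, ADAMTS9, ADAM22 and ADAMTS17 held 1 miR-29 site each. The share with a site among all genes called in siI1 was not computed. A link between site and call was not tested. The let-7 site CTACCTC was present in 4 of the 23 (17.4%; 0.0813 per kb), against 12.9% of genes (0.0652 per kb): ADAMTS12 and ADAMTS15 had 2 each, ADAM15 and ADAMTS6 1 each. ADAM12, ADAM19 and ADAMTS2 had none. A match is a stretch of letters only, not a measured site.

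The sites below belong to members called in siI1 and are shown with the pairing bases in capitals and the flanking bases in lower case, 5' to 3'.
ADAMTS15 let-7 site 1: tcccgcacagtCTACCTCaggccccgctc
ADAMTS15 let-7 site 2: tccactgtttgCTACCTCagattatgccc
ADAMTS12 let-7 site 1: tatttccctgaCTACCTCaagagtatcag
ADAMTS12 let-7 site 2: tctggatgttcCTACCTCccaccagaagt
ADAM12 miR-29 site 1: gtgctgtgctaTGGTGCTctgtctacttg
ADAM19 miR-29 site 1: cctctaatgtgTGGTGCTttggtgagcaa
ADAM19 miR-29 site 2: ggagggccgtgTGGTGCTttgctagatag
ADAMTS2 miR-29 site 1: tctgaccttctTGGTGCTcatgctgtacg
ADAMTS2 miR-29 site 2: tttccagagaaTGGTGCTttgtgagcaac
ADAMTS15 miR-29 site 1: tggactggggtTGGTGCTgagctctgggc
ADAMTS18 miR-29 site 1: gagaagccaaaTGGTGCTcgcaattgtgc

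Promoter windows, 250 bases before to 50 after the start of a gene, came from a set of RefSeq promoters (GRCh38.p14). The set used here held 27 of the 44 members and 16 of the 23 tested, and members such as ADAMTS15 and ADAMTS1 were not in it. The windows were searched on both strands for the TATA box TATAAA, the GC box GGGCGG, the AP-1 motif TGANTCA and the TEAD motif GGAATG. The GC box was in 13 of the 16, against 45% of 35116 promoters, the TEAD motif in 3 (14% of all), the AP-1 motif in 1 (7.71% of all) and the TATA box in 0 (11.5% of all). These 35116 promoters were not limited to genes tested here. The 27 member promoters, tested or not, had a median GC content of 72.0%, against 58.7% over all promoters. ADAM12 and ADAM19, which rose together in siI1, are shown with matches in capitals, both on the minus strand. The ADAM12 window, chr10:126388428-126388727, held 3 GC boxes, and the ADAM19 window, chr5:157575726-157576025, held none of the 4 motifs.
ADAM12 promoter: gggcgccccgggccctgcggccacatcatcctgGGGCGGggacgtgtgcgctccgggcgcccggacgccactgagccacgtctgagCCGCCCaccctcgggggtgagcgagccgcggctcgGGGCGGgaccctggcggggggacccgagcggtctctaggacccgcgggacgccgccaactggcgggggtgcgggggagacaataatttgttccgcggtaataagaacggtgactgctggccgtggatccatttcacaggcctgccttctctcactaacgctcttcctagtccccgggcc
ADAM19 promoter: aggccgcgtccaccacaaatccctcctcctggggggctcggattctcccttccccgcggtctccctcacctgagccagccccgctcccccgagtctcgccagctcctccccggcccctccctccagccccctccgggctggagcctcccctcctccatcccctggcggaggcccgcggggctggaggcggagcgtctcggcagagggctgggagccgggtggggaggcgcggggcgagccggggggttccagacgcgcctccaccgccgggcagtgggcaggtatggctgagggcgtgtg

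The genes that act with the family were described from 4 lists. Of 5 tested inhibitors of metalloproteases (TIMP1, TIMP2, TIMP3, RECK and A2M), 1 rose in siI2 and 1 fell in siI3 against siC, and both of these were TIMP3. Over all genes 0.573% rose in siI2 and 8.29% fell in siI3. In siI1 the count was 0 by limma and edgeR, and 1 at an unadjusted p below 0.05, TIMP2. TIMP3 binds to the matrix and inhibits ADAM17, ADAM10 and several ADAMTS proteases. It had 213, 227 and 198 FPM in siI1, 410, 424 and 355 FPM in siI2, 97.2, 94.9 and 76.4 FPM in siI3, and 175, 205 and 215 FPM in siC. The siI2 libraries were above and the siI3 libraries below all others, while siI1 overlapped siC. The change was 1.0 ± 0.17 log2 units in siI2 (SE; limma adjusted p = 0.0102; up to 0.0775 without siC replicate 1 or siI2 replicate 1) and -1.14 ± 0.17 in siI3 (adjusted p = 0.00218), and siI2 was higher than siI3 by 2.14 ± 0.17 (adjusted p = 3.20e-06). TIMP2 was higher in siI1 than in siI3, with means of 80.1 and 34.3 FPM (1.20 ± 0.24, adjusted p = 0.00424), and higher in siI1 than in siI2, with means of 80.1 and 42.7 FPM (adjusted p = 0.0473, called in 4 of 12 leave-one-out fits).

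Of 14 tested trafficking and maturation partners of ADAM10 and ADAM17, such as the iRhoms, TspanC8 tetraspanins and furin, 1 rose in siI1 against siC, near the share of all genes called there (8.18%, 3.77% in this direction). In siI2 and siI3 the count was 0 by limma and edgeR; at an unadjusted p below 0.05, 2 were higher in siI2 and 2 lower in siI3. The called gene was TSPAN15, which carries ADAM10 to the cell surface and steers it to N-cadherin. TSPAN15 had 19.9, 21.4 and 18.3 FPM in siI1, 17.9, 11.8 and 12.4 FPM in siI2, 3.09, 3.56 and 4.78 FPM in siI3, and 5.45, 8.52 and 7.72 FPM in siC. All siI1 and siI2 libraries were above siC and all siI3 libraries below it. The change in siI1 was 1.36 ± 0.25 log2 units (SE; limma adjusted p = 0.00440), and TSPAN15 was higher in siI1 than in siI3 by 2.13 ± 0.25 (5.39e-05) and in siI2 than in siI3 by 1.63 ± 0.25 (0.00219).

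Of 22 tested substrates shed by ADAMs, 1 rose and 2 fell in siI1, 1 rose in siI2, and 2 rose and 3 fell in siI3 against siC. Of all genes tested, 8.18%, 1.51% and 10.6% were called in these comparisons. The median log2 fold change of the 22 was 0.02 in siI1, -0.04 in siI2 and -0.06 in siI3, beside -0.05, -0.09 and -0.05 over all genes. HBEGF, the heparin-binding EGF receptor ligand released by ADAM17 and ADAM12, had 46.4, 56.0 and 40.0 FPM in siI1, 115, 113 and 87.0 FPM in siI2, 108, 91.2 and 144 FPM in siI3, and 114, 125 and 125 FPM in siC. The siI1 libraries were below all others (-1.35 ± 0.20 log2 units against siC, SE; limma adjusted p = 9.15e-04). The receptor kinase AXL averaged 1845 FPM in siI1 and 926 FPM in siC (1.03 ± 0.23, adjusted p = 0.0149; up to 0.102 without siC replicate 1 or 3 or siI1 replicate 1 or 3). The hepatocyte growth factor receptor MET averaged 79.5 FPM in siI1, 66.2 FPM in siI3 and 161 FPM in siC (adjusted p = 0.0289 and 0.0125; up to 0.160 and 0.0813 without siC replicate 1 or 3, siI1 replicate 1 or 3 for siI1, and siI3 replicate 1 or 2 for siI3). The receptor-like kinase PTK7 averaged 10.1 FPM in siI2 and 3.25 FPM in siC (adjusted p = 0.0228; up to 0.147 without siC replicate 3, siI2 replicate 1 or siI2 replicate 3). In siI3, the adhesion molecule VCAM1 averaged 0.576 FPM against 9.01 FPM in siC (-2.65 ± 0.43, adjusted p = 0.00347). This siI3 mean rests on few reads, as the floor of 3 reads was 0.421, 0.381 and 0.532 FPM in the siI3 libraries. The hyaluronan receptor CD44 averaged 123 FPM in siI3 and 264 FPM in siC (adjusted p = 0.0293), the EGF receptor ligand EREG 10.2 FPM in siI3 and 3.52 FPM in siC (0.0374), and the interleukin receptor IL6R 6.57 FPM in siI3 and 2.39 FPM in siC (0.0264). The calls of CD44, EREG and IL6R were each lost without siC replicate 1 or 3 or siI3 replicate 1 or 2, and that of EREG also without siC replicate 2 or siI1 replicate 3 (adjusted p up to 0.132, 0.168 and 0.116).

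The last list holds matrix proteins cut or bound by ADAMTS and ADAMTSL proteins, and beside these BMP1, PCOLCE, POFUT2 and B3GLCT. Its counts are thus not counts of ADAMTS substrates or ligands alone. Of its 17 tested genes, 7 rose and 1 fell in siI1, with BMP1 and PCOLCE among the 7. Against siC, 2 rose in siI2, and 1 rose and 3 fell in siI3. Over all genes 3.77% rose and 4.42% fell in siI1, 0.573% rose in siI2, and 2.30% rose and 8.29% fell in siI3. The median log2 fold change of the 17 was 0.70 in siI1, 0.45 in siI2 and -0.07 in siI3, beside -0.05, -0.09 and -0.05 over all genes. COL1A1, whose propeptide ADAMTS2 removes, had 798, 692 and 761 FPM in siI1, 311, 237 and 527 FPM in siI2, 147, 161 and 109 FPM in siI3, and 74.6, 105 and 101 FPM in siC. All 9 knockdown libraries were above the siC libraries. The change was 3.00 ± 0.26 log2 units in siI1 (SE; limma adjusted p = 6.20e-06) and 1.86 ± 0.26 in siI2 (adjusted p = 0.00248). In siI1, the collagen chain COL5A1 averaged 297 FPM against 80.4 FPM in siC, the procollagen C-proteinase BMP1 49.6 FPM against 13.2 FPM, its enhancer PCOLCE 187 FPM against 94.6 FPM, the microfibril protein FBN1 64.6 FPM against 22.1 FPM and the proteoglycan BGN 11.3 FPM against 2.50 FPM, all called higher (limma adjusted p = 3.35e-05, 3.89e-04, 0.00998, 9.32e-04 and 0.00774). PCOLCE lost its call without siC replicate 1 or 3 or siI1 replicate 1 or 3 (adjusted p up to 0.0738).

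THBS1, thrombospondin 1, is a matrix protein that can activate latent TGF-beta. It had 352, 309 and 351 FPM in siI1, 324, 283 and 322 FPM in siI2, 58.2, 56.1 and 47.7 FPM in siI3, and 145, 141 and 141 FPM in siC. All siI1 and siI2 libraries were above siC and all siI3 libraries below it. The changes were 1.24 ± 0.16 in siI1, 1.11 ± 0.16 in siI2 and -1.39 ± 0.16 log2 units in siI3 (SE; limma adjusted p = 4.00e-04, 0.00398 and 2.75e-04). Fibronectin, FN1, averaged 51.8 FPM in siI1, 59.2 FPM in siI3 and 134 FPM in siC (adjusted p = 4.35e-04 and 0.00241). FBN1 averaged 12.1 FPM in siI3 and 22.1 FPM in siC (adjusted p = 0.0322; up to 0.164 without siC replicate 1 or 3 or siI3 replicate 1 or 2). The brain proteoglycan BCAN averaged 6.12 FPM in siI3 and 2.68 FPM in siC (adjusted p = 0.0438; 0.252 after the GC and length correction, and called in 3 of 12 leave-one-out fits).

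**Figure D5:**
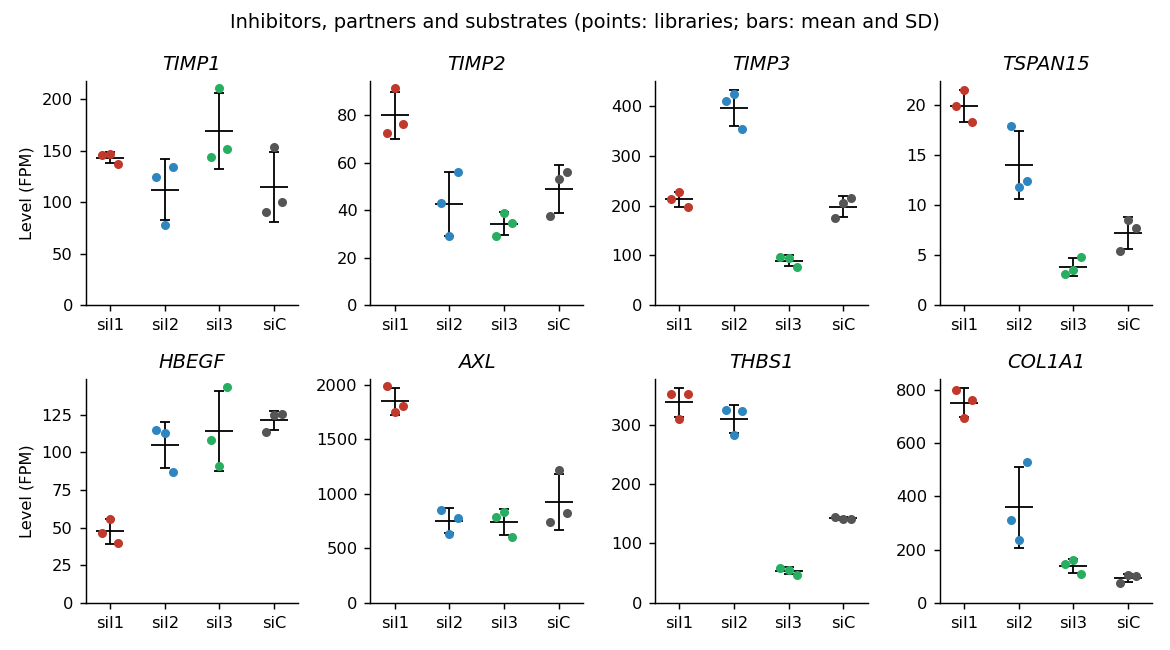
Level in FPM, on axes from 0, of inhibitors (TIMP1, TIMP2, TIMP3), the ADAM10 partner TSPAN15, shed substrates (HBEGF, AXL) and matrix proteins (THBS1, COL1A1), with 3 libraries (points), mean and SD (bars) for siI1, siI2, siI3 and siC. TIMP3 is high in siI2 (355 to 424 FPM) and low in siI3 (76.4 to 97.2 FPM), HBEGF is low in siI1, and COL1A1 is high in siI1.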

How the data were processed

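RNA-seq of 12 libraries (4 groups of 3) was deposited by the authors as 1 table. Its values are, per the file headers, a depth-normalized signal in FPM, beside log2 fold changes and FDR (adjusted p-value) columns of the authors' own comparisons. Per the submitters' processing notes, cutadapt 1.6, TopHat2 2.0.13, hg19, featureCounts 1.4.6 and edgeR 3.12 were used; no source used here gives the strand setting, annotation or filters. Within a tolerance of 0.01, 100% of values were whole multiples of 1 read, so reads were recovered (92 spike-ins left out of tests).

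limma 3.58.1 (R 4.3.3) with a mean-variance trend was fitted to log2(FPM + 1), with a coefficient for each group and the 12 libraries together, for genes passing filterByExpr (minimum count 10); this scale understates changes of weakly expressed genes. Benjamini-Hochberg adjustment ran over all 13782 genes. edgeR 4.0.16 on recovered reads called 1388, 185 and 1370 genes in siI1, siI2 and siI3 against siC; DESeq2 1.42.0 was another alternative. The GC and length correction subtracted a loess surface (span 0.5) per library, for 13571 genes (98.5%). Gene lists hold known partners of the family. Named genes were all members above 1 FPM, with every library's value where called, group values for the next 6 by level, and called members of the partner lists. Members, lists and this rule were chosen with earlier results of these data known. Chromosomes, lengths and GC content come from GENCODE release 29 (GRCh38), matched by gene, and no hg19 coordinates were used. A value after ± is an SD over the libraries of a group or an SE of the fit, and reflects scatter between libraries. Floors cover counting error only.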

Additional observations from a re-analysis of the deposited data

How the results depend on the processing

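No called result changed direction under any alternative run. Among members not called, the GC and length correction turned the sign of some log2 fold changes, among them ADAM10 (0.23 corrected, -0.31 as fitted) and ADAM17 (0.18, -0.38) in siI2 and ADAM15 in siI1 (-0.32, 0.12) against siC. Genes called in siI1, siI2 and siI3 against siC, then in siI1 against siI2, siI1 against siI3 and siI2 against siI3, numbered 1128, 208, 1460, 331, 971 and 276. Without a filter they were 481, 77, 461, 172, 594 and 134, with 0 members in siI2 and 2 in siI3 against siC. With upper-quartile factors, 686 (siI1), 86 (siI2), 202 (siI1 against siI2) and 148 (siI2 against siI3), with 0 members in siI2, 3 in siI3 and 3 in siI1 against siI2. With only the 6 libraries compared, 2039 (siI1), 37 (siI2) and 91 (siI2 against siI3), with 0 members in siI2 and 3 in siI3. With DESeq2 on recovered reads, 2014 (siI1), 716 (siI2), 2296 (siI3), 544 (siI1 against siI2) and 557 (siI2 against siI3), with 2 members in siI2 and 5 in siI2 against siI3. With the GC and length correction, 895 (siI3), 645 (siI1 against siI2), 1566 (siI1 against siI3) and 513 (siI2 against siI3), with 3 members in siI3. Without siC replicates 1 and 3 together, chosen after seeing the data, 40, 1 and 15 genes and 3, 0 and 0 members against siC. With the replicate number as a block, 696, 95 and 745 genes against siC and 3 members in siI3. Same-numbered libraries correlated at -0.455 to 0.447 and others at -0.323 to 0.425. With 3 libraries per group, these overlapping ranges cannot tell whether the numbers pair the libraries. Leaving out each library in turn gave 268 to 2602, 28 to 1572, 89 to 2824, 127 to 486, 546 to 1223 and 112 to 410 genes, 5 to 9, 0 to 3, 1 to 8, 2 to 5, 7 to 7 and 3 to 5 members, and 24 to 27 members above 1 FPM. The causes were not tested. Depth limits the 19 members not above 1 FPM in any group. Their group means, at most 0.974 FPM and some of them 0, lie near or below the floor of 3 reads (0.324 to 0.727 FPM).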

Other observations

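A further 20 rows of the table carry an ADAM-like name that the rule leaves out, such as pseudogenes, antisense RNAs and the suffixed rows ADAMTS13.1 and ADAMTS10.1; of these, 7 reached at least 1 FPM in some library.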
